A study of Homo sapiens with 3 samples.

Results

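CC chemokines are small secreted proteins that draw leukocytes along a gradient by binding G protein-coupled receptors on the target cell. CCL2, CCL7, CCL8, and CCL13 are monocyte chemoattractants that act mainly through CCR2 and related receptors, whereas CCL17 and CCL22 bind CCR4 on T helper cells and regulatory T cells. CCL1 binds CCR8, CCL19 binds CCR7 on dendritic cells and naive T cells, CCL20 binds CCR6 on T helper 17 cells, and CCL18 attracts T cells. Macrophages release many of these ligands once a Toll-like receptor is engaged, and CCL20 with CCR6 is a well-known axis of psoriatic skin.

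These 10 monocyte- and T-cell-attracting genes were examined in THP-1 macrophages, and they were chosen by name, as every transcript probe that the scanner output assigned to them. They gave 11 probes of 58201, and 10 genes of 43317 gene names on the array. CCL19 had 2 probes and each other gene had 1.

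THP-1 is a human monocytic leukemia line, so all values come from a single transformed line. All cells had first been turned into macrophages with 100 ng/mL PMA for 24 to 36 h and rested in fresh medium, the controls included. The Ctrl array held RNA of these macrophages without IMQ, the IMQ array RNA after imiquimod (IMQ, a Toll-like receptor agonist), and the third array RNA of cells given DMD before IMQ, all labelled 4 h. DMD is a methoxy- and methyl-substituted benzenediol from the fungus Antrodia cinnamomea. The labels write the third condition as IMQ+X, and X was read as DMD because the series title and the treatment text name no other compound. The labels give no dose for either agent.

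There was 1 array per condition, all on 1 slide. The number of arrays limits the precision, so no p-value was computed. A difference was called at 2-fold. Beside each difference stands a technical SD, which is the spread between repeated spots of like brightness within an array. It covers spot noise and not the spread between cultures, RNA extracts, or labelling reactions. A value given as an intensity is on the deposited normalized scale, and a difference is a difference of log2 values. All 6 macrophage or monocyte marker genes on the array (CD14, ITGAM, CSF1R, SPI1, MSR1, and ITGAX) were well above background on the 3 arrays. Their summed intensity was 295334 in Ctrl, 233964 in IMQ, and 211648 in IMQ+DMD. Most of it was CSF1R, at 224896, 172912, and 153691. Against Ctrl, both ITGAX probes were 0.44 higher in IMQ, and 0.47 and 0.45 higher in IMQ+DMD. SPI1 had 0.04 and 0.10, and the other marker probes compared were lower than in Ctrl on both arrays. Of the marker probes, 1 for MSR1 was at least 2-fold lower in IMQ than in Ctrl (-1.02). Both it (-1.28) and CD14 (-1.21) were at least 2-fold lower than in Ctrl in IMQ+DMD. Of the genes defining other cells, CEACAM8, COL3A1, and CLEC9A were not well above background on any array. The 4 T cell genes summed to between 623 and 722 across the arrays, and the 3 B cell genes to between 3800 and 4671. The 3 fibroblast genes summed to between 130 and 160.2, and the 3 keratinocyte genes to between 17793 and 18839. Most of the B cell sum was CD79A, at 4148, 3424, and 4011 on the Ctrl, IMQ, and IMQ+DMD arrays. Nearly all of the keratinocyte sum was KRT10, at 18750, 17724, and 18069. The brighter KRT14 probe read 48.9, 51.8, and 61.0, and KRT5 was not well above background on the IMQ array. The 5 dendritic cell genes summed to 656 in Ctrl, 2025 in IMQ, and 1193 in IMQ+DMD, through LAMP3, a maturation marker, at 114, 1801, and 969, while CD1A and CD1C were more than 2-fold lower in IMQ than in Ctrl. The part of these marker changes in the chemokine values was not tested. Between 66.6% and 72.0% of all probes were well above background on an array, with the lowest share on the IMQ array.

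Each probe is a 60-base oligonucleotide, and the first 30 bases are shown for the genes that the results turn on, to show which transcript stretch was read. No bases are in capitals, because no part of a probe was singled out.
CCL20: gtaaaaaagtcaagaacatgtaaaaactgt
CCL1: gagaggcaaagaggcctgcgccttggacac
CCL22: acttggtattataagctggagttatatatg
CCL7: aacccaaactccaaagctttgaacattcat
CCL2: gaaattgcttttcctcttgaaccacagttc
In the hg19 coordinates of the array design, the CCL20 probe lies at chr2:228681100-228681836 on the plus strand, a span of 737 bases for 60 probe bases, so its sequence is split over that span. The CCL22 probe lies at chr16:57399238-57399297, the CCL2 probe at chr17:32584050-32584109, and the CCL7 probe at chr17:32598800-32598859, all on the plus strand. The CCL1 probe lies at chr17:32687609-32687668 on the minus strand. No 2 of the 11 probes shared a run of more than 9 bases over the 55 pairs. Probes were compared only with each other, so whether a probe also reads the transcript of another ligand was not tested. The exon or untranslated part that a probe covers was not analysed here.

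After IMQ, 3 of the 10 genes were at least 2-fold higher than in Ctrl, namely CCL20, CCL1, and CCL22, and none (0 probes) was at least 2-fold lower. The count was over 10 probes compared, since CCL8 was not well above background on the IMQ array. Over all 41109 probes compared, 4.31% were at least 2-fold higher and 3.48% at least 2-fold lower. The median difference of the 10 CC chemokine probes was 0.66, beside -0.01 over all probes. At the same time, 8 of these 10 probes had a higher value in IMQ and 2 a lower one, most of them by less than 2-fold, and with spike-in scaling the split was 6 and 5 of 11.

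CCL20, the CCR6 ligand, had a normalized intensity of 1050 in Ctrl, 67347 in IMQ, and 42316 in IMQ+DMD. Both IMQ-treated arrays were far above Ctrl. The rise to IMQ was 64.2-fold (log2 difference 6.004, technical SD 0.07), which placed the probe 10th from the top of the 41109 compared. With DMD the intensity was 1.59-fold below that of IMQ alone (log2 difference -0.67, technical SD 0.06), a change many times the spot noise but under 2-fold. CCL20 therefore kept 88.8% of its log2 rise, or 62.2% of its rise in linear intensity, in IMQ+DMD.

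CCL1, the CCR8 ligand, read 136 in Ctrl, 1344 in IMQ, and 869 in IMQ+DMD. The order of the arrays was that of CCL20. The rise was 9.86-fold (log2 difference 3.30, technical SD 0.11), and the probe was 93rd from the top. The difference between IMQ+DMD and IMQ was -0.63 (technical SD 0.07), and 80.9% of the log2 rise remained, or 60.6% of the linear rise.

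CCL22, a CCR4 ligand, read 3.95 in Ctrl, where it was not well above background, 199 in IMQ, and 63.8 in IMQ+DMD. It was the only gene of the 10 whose signal went from not well above background on the Ctrl array to well above it on both IMQ-treated arrays. Set against the detection floor of the Ctrl array, 16.5 (the lowest signal that still counted as well above background), IMQ was at least 12.1-fold higher and IMQ+DMD at least 3.87-fold higher. The first of these bounds, 3.59 on the log2 scale, was 1.76 with normexp background correction, and the second, 1.95, was 0.75. IMQ+DMD was 3.11-fold below IMQ (log2 difference -1.64, technical SD 0.23). With normexp background correction this difference was -1.01, close to the 2-fold limit. In the deposited values, at least 54.4% of the log2 rise, or at least 26.0% of the linear rise, remained. With normexp, 42.8% of the log2 rise remained. Over the 1773 probes at least 2-fold higher in IMQ, the median share of the log2 rise left in IMQ+DMD was 75.6%, with quartiles at 44.0% and 93.0%. CCL20 and CCL1 lay above that median and below the upper quartile. The rise and the share left use the same Ctrl and IMQ arrays, so they are not independent of each other.

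**Figure D1:**
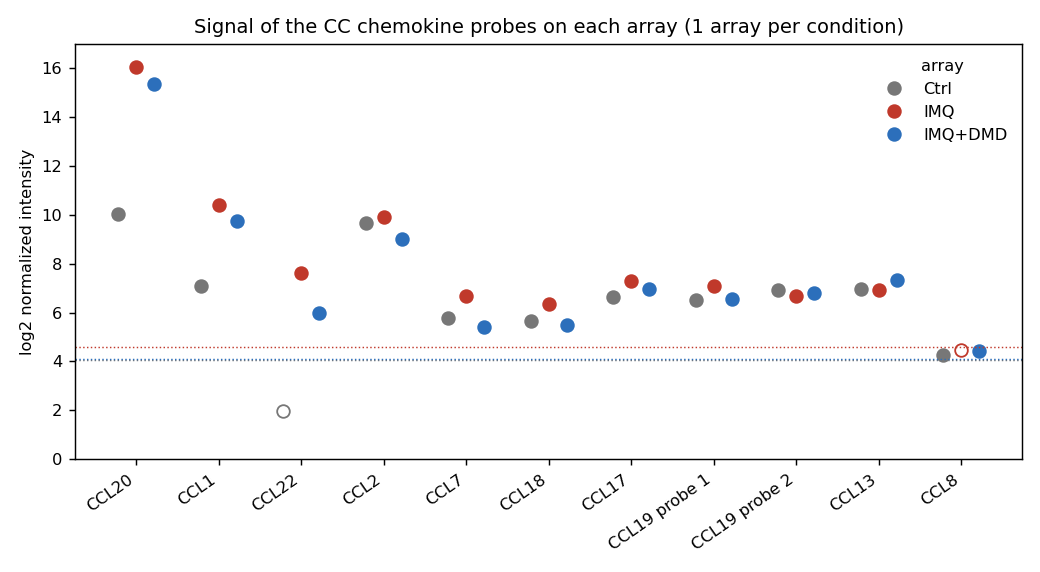
Log2 normalized intensity (y axis) of the 11 CC chemokine probes (x axis) on the Ctrl (grey), IMQ (red), and IMQ+DMD (blue) arrays, with 1 array per condition. Open circles were not well above background on that array, and dotted lines mark the lowest signal that was; CCL20, CCL1, and CCL22 show the wide gap between Ctrl and both treated arrays, and levels of different probes are not to be compared.

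None of the 4 monocyte chemoattractants was 2-fold higher in IMQ than in Ctrl, whereas CCL7 was 2-fold lower in IMQ+DMD than in IMQ. CCL2, the founding ligand of CCR2, was printed on 10 spots of each array, which gives it the smallest technical error of the 10 genes. After quantile normalization of the single spots, its intensities ran from 741 to 844 in Ctrl (median 790), from 925 to 1005 in IMQ (median 966), and from 481 to 554 in IMQ+DMD (median 521). The spots of the 3 arrays did not overlap, with those of IMQ highest and those of IMQ+DMD lowest. How many of the other repeated probes were also without overlap is not given here, so the lack of overlap speaks to spot noise alone. In the deposited values, where CCL2 was 806, 960, and 513 on the Ctrl, IMQ, and IMQ+DMD arrays, the difference was 0.25 between IMQ and Ctrl, -0.90 between IMQ+DMD and IMQ, and -0.65 between IMQ+DMD and Ctrl, each with a technical SD of 0.02. The small rise to IMQ rested on the scaling. It was -0.15 without normalization between arrays and -0.22 with scaling to the spike-in controls. Relative to the median of the probes well above background on all arrays, it was 0.34 under both. The spots are not replicates of the condition.

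**Figure D2:**
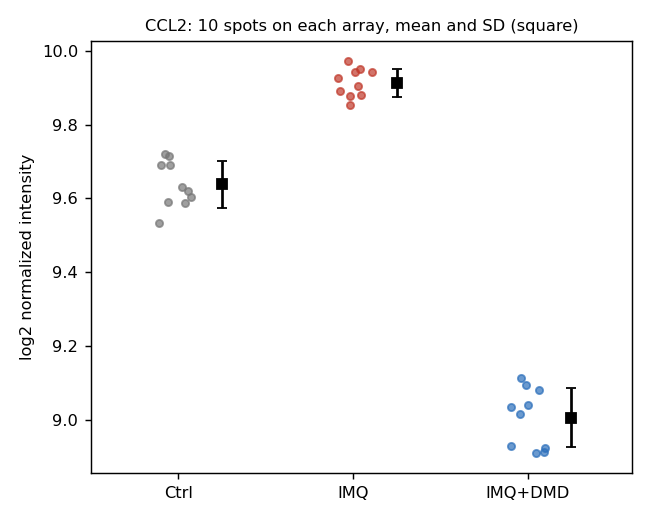
Log2 normalized intensity (y axis) of the 10 CCL2 spots on each array (x axis), after quantile normalization of the single spots; squares and bars are the mean and SD over the spots of 1 array. The means were 9.64 (SD 0.06), 9.91 (SD 0.04), and 9.01 (SD 0.08) on the Ctrl, IMQ, and IMQ+DMD arrays. The 3 clouds did not overlap, which speaks to spot noise alone.

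CCL7, which attracts monocytes through CCR2 and other receptors, read 54.3 in Ctrl, 103 in IMQ, and 42.1 in IMQ+DMD. It was highest on the IMQ array. Its rise of 0.93 (technical SD 0.27) lay just under the 2-fold threshold, and its fall by 1.29 (technical SD 0.27) from IMQ to IMQ+DMD was past it, with -0.37 (technical SD 0.30) between IMQ+DMD and Ctrl. The fall stayed past 2-fold with scaling to the 75th percentile and with a second quantile normalization, but came to -0.996 (just under 2-fold) without normalization, -0.86 with spike-in scaling, and -0.70 with normexp background correction.

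CCL8 was close to the detection limit, at 19.1, 22.0, and 21.5 on the Ctrl, IMQ, and IMQ+DMD arrays, and it was not well above background on the IMQ array. The difference between IMQ+DMD and Ctrl was 0.17 with a technical SD of 0.42, so no difference was detectable in that comparison at this signal. CCL13, which also binds CCR2, had 126, 120, and 160 on the same 3 arrays. Its difference was -0.07 between IMQ and Ctrl (technical SD 0.24) and 0.41 between IMQ+DMD and IMQ (technical SD 0.20), so IMQ+DMD was the highest array and the others lay within the spot noise of each other in the deposited values. Between IMQ and Ctrl, CCL13 had -0.64 without normalization and -0.72 with spike-in scaling.

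Of the remaining T-cell attractants, none was changed 2-fold. CCL17, the second CCR4 ligand, read 100 in Ctrl, 155 in IMQ, and 123 in IMQ+DMD, with a difference of 0.62 between IMQ and Ctrl and of -0.33 between IMQ+DMD and IMQ (technical SD 0.20 each). CCL18 had 50.9, 82.1, and 44.8, with differences of 0.69 and -0.87 (technical SD 0.27 each). Both genes were highest on the IMQ array in the deposited values. With spike-in scaling, the difference between IMQ and Ctrl was only 0.006 for CCL17 and 0.0004 for CCL18. With the same scaling, CCL17 was 0.03 higher in IMQ+DMD than in IMQ. In the deposited values, CCL18 on the Ctrl and IMQ+DMD arrays differed by less than its spot noise (-0.19, technical SD 0.30).

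The 2 probes for CCL19, the CCR7 ligand, gave different signs. The probe at chr9:34689606-34689665 had 91.0, 136, and 93.2 on the Ctrl, IMQ, and IMQ+DMD arrays, with 0.58 between IMQ and Ctrl (technical SD 0.20), which became -0.05 with spike-in scaling. The probe at chr9:34690208-34690267 had 120, 102, and 112 on the same arrays, with -0.23 (technical SD 0.24), within its spot noise, but -0.81 without normalization and -0.89 with spike-in scaling. Hence the direction of CCL19 was not settled by these probes, both of which are assigned to the same transcript record, on the minus strand.

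With DMD before IMQ, 2 of the 10 genes, CCL22 and CCL7, were at least 2-fold lower than with IMQ alone, and none (0 probes) was 2-fold higher. Over all 40831 probes compared, 1.31% were at least 2-fold lower and 1.09% at least 2-fold higher. Of the 10 CC chemokine probes compared, 8 had a lower signal in IMQ+DMD than in IMQ, with a median difference of -0.65 beside -0.01 over all probes. The other 2 were CCL13 and the second CCL19 probe. CCL2 at -0.90 and CCL18 at -0.87 lay just inside the 2-fold limit. CCL22 was 115th from the bottom and CCL7 242nd from the bottom of all probes.

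**Figure D3:**
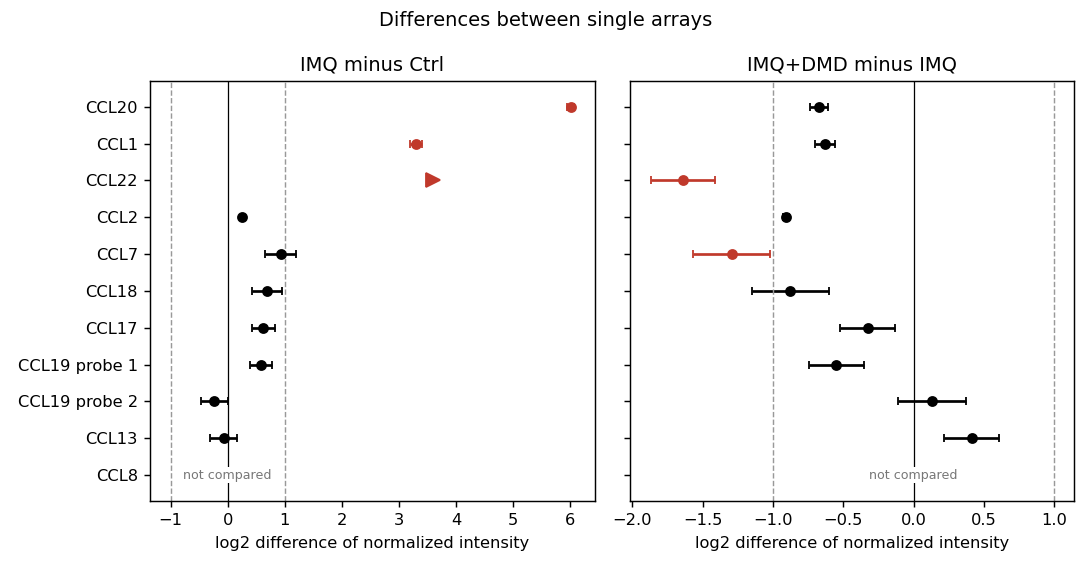
Log2 difference of normalized intensity (x axes) for each CC chemokine probe (y axis), for IMQ minus Ctrl (left) and IMQ+DMD minus IMQ (right); bars are 1 technical SD on each side, the triangle is a lower bound, dashed lines mark 2-fold, and red marks values past it. CCL20, CCL1, and CCL22 lie past the line on the left, CCL22 and CCL7 on the right, and CCL8 was not compared.

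Relative to Ctrl, IMQ+DMD cells still had CCL20 (40.3-fold, log2 difference 5.33, technical SD 0.06), CCL1 (6.37-fold, log2 difference 2.67, technical SD 0.11), and CCL22 (at least 3.87-fold) higher, that is 3 of the 11 probes compared. Over all 43692 probes compared, 3.09% were at least 2-fold higher and 4.91% at least 2-fold lower. No CC chemokine probe (0 of 11) was 2-fold lower than in Ctrl. The lowest was CCL2, 1.57-fold below Ctrl, and it passed 2-fold without normalization (-1.07) and with spike-in scaling (-1.01). The CCL22 difference was 0.75 with normexp background correction, under 2-fold. The 3 comparisons share arrays, so that a high value on the IMQ array enters both the rise and the fall.

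**Figure D4:**
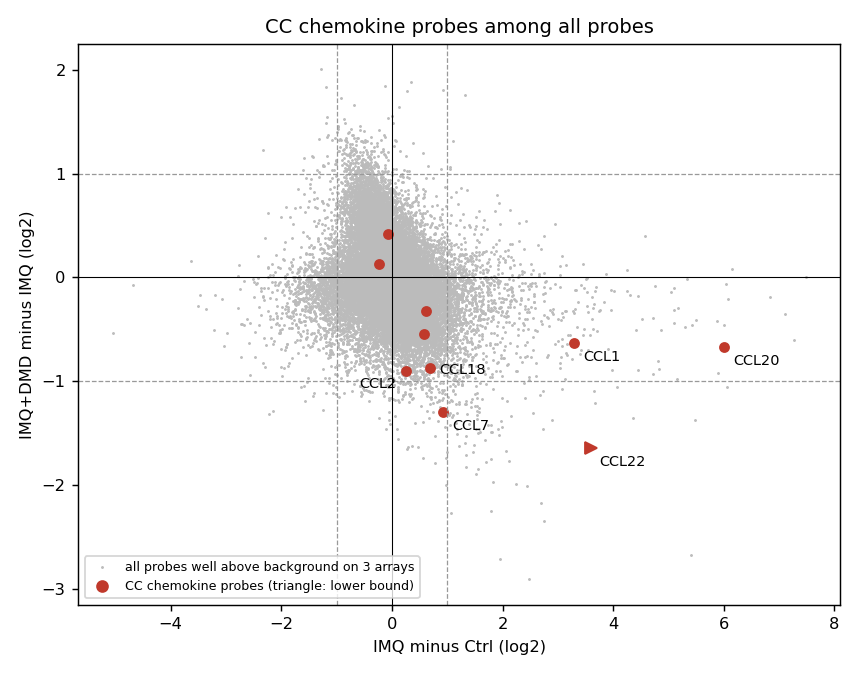
Difference IMQ minus Ctrl (x axis, log2) against IMQ+DMD minus IMQ (y axis, log2) for the probes well above background on all 3 arrays (grey) and the CC chemokine probes (red; the CCL22 triangle is a lower bound on the x axis). The axes share the IMQ array with opposite sign, which by itself tilts the cloud downwards; CCL20 lies at 6.004 and -0.67, and CCL22 at 3.59 or more and -1.64.

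The direction of the 3 large rises did not rest on how the arrays were scaled. Over the alternatives tried, the difference between IMQ and Ctrl ran from 5.60 to 6.12 for CCL20, from 2.80 to 3.35 for CCL1, and from 1.76 to 5.65 for CCL22. The median of the 37613 probes well above background on all arrays was 0.00 for IMQ minus Ctrl in the deposited values, but -0.49 without normalization and -0.56 with spike-in scaling. The values of CCL7, CCL17, and CCL18 as read were 0.34, 0.08, and 0.07 without normalization, and relative to the median they were 0.83, 0.57, and 0.56. Over all probes, 55.3% of those past 2-fold between IMQ and Ctrl were higher in the deposited values, 44.1% with scaling to the 75th percentile, 9.89% without normalization, and 7.61% with spike-in scaling. Between IMQ+DMD and IMQ that share was 45.5% in the deposited values, 82.7% with scaling to the 75th percentile, 87.9% without normalization, and 94.1% with spike-in scaling, while CCL22 stayed at least 2-fold lower in each of these. The median for IMQ+DMD minus IMQ over the probes well above background on all arrays was -0.02 in the deposited values and 0.17 with spike-in scaling.

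**Figure D5:**
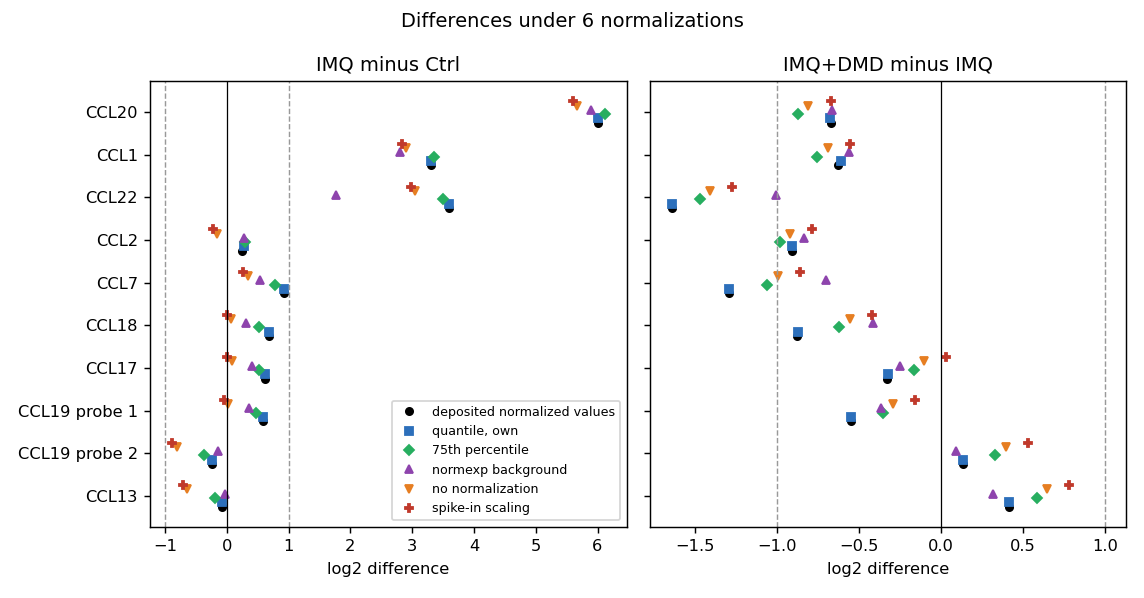
Log2 difference (x axes) of each compared CC chemokine probe (y axis) under 6 normalizations (symbols), for IMQ minus Ctrl (left) and IMQ+DMD minus IMQ (right), with dashed lines at 2-fold. CCL20, CCL1, and CCL22 stay past 2-fold on the left under each of the 6, whereas CCL7 crosses the line on the right.

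The spots themselves were even. Over the 30 spots of the single-spot probes on the 3 arrays, the pixel SD in percent of the mean lay between the 2.81st and the 89.8th percentile of spots within 1.5-fold of their brightness, and 0 carried an outlier mark. The CCL22 spot on the IMQ array, with a pixel SD of 17.7% of its mean, was at the 57.2nd percentile.

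Most of the genes lie in clusters with others of this group. CCL20 on chromosome 2, CCL19 on chromosome 9, and CCL18, at another place on chromosome 17, do not. The probes of CCL2, CCL7, CCL8, CCL13, and CCL1 fall within 104 kb of chromosome 17 (hg19), and CCL22 and CCL17 within 50.7 kb of chromosome 16, with CX3CL1 between them in the RefSeq gene order. Some neighbours differed and others did not. CCL2 and CCL7, adjacent in the gene order, were both highest in IMQ and lowest in IMQ+DMD in the deposited values, though CCL2 was highest in Ctrl without normalization and with spike-in scaling. CCL1 rose 9.86-fold, while the CCL13 probe 2.24 kb away had a difference of -0.07, and CCL22 rose at least 12.1-fold while CCL17 had 0.62.

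Promoter sequence was available from RefSeq (GRCh38.p14) for 8 of the 10 genes, not for CCL2 and CCL17. The 250 bases before the transcription start were searched on both strands for the 10-base NF-κB consensus and for the AP-1-like letters TGANTCA, and overlapping matches were merged. The κB consensus was found before CCL20, CCL1, and CCL22, and not before CCL7, CCL8, CCL13, CCL18, or CCL19. Of all 35116 promoters in the table, 9.96% held it in a window of this length. TGANTCA was found before CCL7, and 6.57% of all promoters held it. These are matches of letters and not sites shown to be bound, and a window without a match says nothing about the factor. The windows of the 3 genes that rose and of CCL7 are shown so that the matches, in capitals, can be read in place, each on the strand of its gene: chr2:227813592-227813841 (plus) for CCL20, chr17:34363234-34363483 (minus) for CCL1, chr16:57358533-57358782 (plus) for CCL22, and chr17:34269971-34270220 (plus) for CCL7.
CCL20: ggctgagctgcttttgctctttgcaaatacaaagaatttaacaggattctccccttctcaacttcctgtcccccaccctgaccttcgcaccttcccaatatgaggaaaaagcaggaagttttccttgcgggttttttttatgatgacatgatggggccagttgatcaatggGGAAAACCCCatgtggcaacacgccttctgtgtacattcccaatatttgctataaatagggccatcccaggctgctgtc
CCL1: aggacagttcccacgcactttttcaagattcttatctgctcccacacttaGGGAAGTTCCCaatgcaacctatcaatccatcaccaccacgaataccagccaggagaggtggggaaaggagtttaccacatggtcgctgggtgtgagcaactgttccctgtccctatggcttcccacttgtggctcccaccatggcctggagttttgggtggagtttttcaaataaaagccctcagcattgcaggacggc
CCL22: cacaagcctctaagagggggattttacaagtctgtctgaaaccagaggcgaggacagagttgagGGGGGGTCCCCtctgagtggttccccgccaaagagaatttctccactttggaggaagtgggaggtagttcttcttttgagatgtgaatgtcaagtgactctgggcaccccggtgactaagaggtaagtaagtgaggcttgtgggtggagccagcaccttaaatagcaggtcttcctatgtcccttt
CCL7: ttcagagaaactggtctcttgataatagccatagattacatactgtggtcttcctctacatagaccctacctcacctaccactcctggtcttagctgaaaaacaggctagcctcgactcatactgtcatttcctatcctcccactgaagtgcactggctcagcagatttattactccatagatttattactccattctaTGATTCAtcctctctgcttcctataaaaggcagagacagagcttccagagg
The match before CCL20 begins 79 bases before the start, those before CCL1 and CCL22 at 200 and 186 bases, and the one before CCL7 at 51 bases.

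Genes acting with these ligands were read from lists. Of the receptors, CCR7, which binds CCL19, read 81.8 in Ctrl, 12682 in IMQ, and 8379 in IMQ+DMD. Its difference was 7.28 between IMQ and Ctrl (technical SD 0.18) and -0.60 between IMQ+DMD and IMQ (technical SD 0.06), whereas the 2 CCL19 probes stayed under 2-fold. CCR1, a receptor of CCL7 and CCL8, fell by 1.28 with IMQ (technical SD 0.06). In all, 1 of the 14 receptor probes compared was at least 2-fold higher in IMQ than in Ctrl, and 3 were at least 2-fold lower, namely CCR1 and, named after their values were seen, 1 probe each of CCR2 and PITPNM3. Neither the CCR2 nor the PITPNM3 probe was well above background with IMQ, so both of these differences are bounds. The second probe of each of these 2 genes was not well above background on any array. None of 13 receptor probes (0 in each direction) passed 2-fold between IMQ+DMD and IMQ, where 1.31% of all probes were lower and 1.09% higher. Between IMQ and Ctrl, 4.31% of all probes were at least 2-fold higher and 3.48% at least 2-fold lower. CCR6, CCR4, and CCR8, the receptors of CCL20, CCL22, and CCL1, are chiefly found on other cells. Here CCR6 had 423, 561, and 545 on the Ctrl, IMQ, and IMQ+DMD arrays, CCR4 had 34.3, 39.1, and 34.3, and CCR8 was not well above background on any array.

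Of the other CC chemokine ligands, 7 of 19 probes compared were at least 2-fold higher in IMQ than in Ctrl and 1 was lower (CCL28, named after its values were seen). Over all probes, 4.31% were higher and 3.48% lower. The 7 higher probes were all of CCL3 (named after its values were seen), CCL3L3, or CCL4L2, so they do not count separate genes. The 3 named by the size of their difference were the CCL4L2 probes with 6.01 and 5.88 and a CCL3L3 probe with 5.10. CCL4L2 and CCL3L3 are near-identical copies of CCL4 and CCL3, and which copy a probe read is uncertain. No probe of this list (0 of 19) passed 2-fold in either direction between IMQ+DMD and IMQ, where 1.31% of all probes were lower and 1.09% higher.

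Among genes acting on CC chemokine transcription or processing, 10 of 18 probes compared were at least 2-fold higher in IMQ and 0 were lower, with a median difference of 1.28. Over all probes, 4.31% were at least 2-fold higher and 3.48% at least 2-fold lower. NFKBIA, the inhibitor that NF-κB itself induces, had 3.54 (technical SD 0.02), REL, an NF-κB subunit, had 2.57 (technical SD 0.08), and NFKBIZ, an atypical IκB protein, had 2.44 (technical SD 0.18). Between IMQ+DMD and IMQ these had -0.14, -0.23, and -0.62. The 1 probe of this list at least 2-fold lower in IMQ+DMD was IRF4, a transcription factor of macrophage and T cell differentiation, named after its values were seen, with intensities of 3.72 (not well above background), 81.7, and 29.1 on the Ctrl, IMQ, and IMQ+DMD arrays. Of all probes, 1.31% were at least 2-fold lower in IMQ+DMD than in IMQ. With normexp background correction, IRF4 was not 2-fold lower. Like CCL22, IRF4 was well above background on the IMQ and IMQ+DMD arrays alone.

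The genes with the pattern most like CCL20 and CCL1 were sought as the smallest distance over the differences IMQ minus Ctrl and IMQ+DMD minus IMQ, both taken from the same 3 arrays. For CCL20 these were CCL4L2 (distance 0.22) and IL23A (distance 0.28), the p19 subunit of IL-23, with 5.89 between IMQ and Ctrl and -0.92 between IMQ+DMD and IMQ. For CCL1 they were DNAH17-AS1, an antisense transcript (distance 0.11), and TFPI2, a serine protease inhibitor (distance 0.14), with 3.18 and -0.56. CCL22 had no such match computed, because its Ctrl value was only a bound. With 3 arrays such likeness is a description of these arrays alone.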

How the data were processed

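RNA from THP-1 macrophages in 3 conditions was hybridized to 1 one-color Cy3 array each (array design 072363, hg19 annotation). The authors deposited the scanner output (Feature Extraction 10.5.1.1) and a table with raw and normalized intensities. The raw intensity equals the scanner's background-corrected signal for probes with a single spot. The deposited normalized intensity, which differed from a quantile normalization of the scanner signal by at most 0.0244 log2 units for the CC chemokine probes, was converted to log2 and used throughout. The 3 columns of detection marks in that table were not used, since the scanner marks were. Where a probe was not well above background, its value was raised to the detection floor (the lowest signal of probes that passed) if it lay under it. A probe was compared where the brighter array was well above background, and a difference with a dim side is a bound. The technical SD came from the 300 probes with 10 spots, by brightness. No p-values were computed, with 1 array per condition.

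The 10 genes and the lists of receptors, other ligands, transcription and processing genes, and cell markers were chosen with earlier results of these data known. From each list, the 3 probes with the largest difference between IMQ and Ctrl among those well above background on both arrays were named, except 1 that is not reported here, and further names are marked as chosen after seeing values. For likeness, the 2 nearest gene symbols were named, leaving out LOC, XLOC, and ENST placeholders. The alternatives tried were no normalization, scaling to the 75th percentile or to the 8 of 10 spike-in probes well above background on all arrays, a second quantile normalization, normexp background correction with an offset of 50, 2 other filters, thresholds of 1.5-fold and 4-fold, and 1 probe per gene. Software was limma 3.58.1 (R 4.3.3) and pandas 2.3.3, numpy 2.4.6, and matplotlib 3.10.9 (Python 3.11.15). The detection floor, the bounds, and the 2-fold call were tested on simulated data with known differences. Gene ontology and pathway tests were not used here.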

Additional observations from a re-analysis of the deposited data

How the results depend on the processing

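Some of the alternatives could hardly move a value. The 2 other filters changed or left out only the CCL22 differences from Ctrl, and the second quantile normalization nearly repeated the deposited one. With these counted in, 215 log2 differences of the CC chemokine probes were recomputed under alternatives. Of them, 206 kept their direction and 140 moved by less than the technical SD. For CCL2, IMQ minus Ctrl changed sign by a move larger than the technical SD (-0.15 without normalization, -0.22 with spike-in scaling). So did IMQ minus Ctrl of the first CCL19 probe (-0.046 with spike-in scaling). The same held for CCL17, for IMQ+DMD minus IMQ (0.033 with spike-in scaling) and for IMQ+DMD minus Ctrl (-0.024 without normalization). No other CC chemokine difference did so. Of these reversed values, only those of CCL2 were themselves larger in size than the technical SD. Outside these genes, CCR1 for IMQ+DMD minus IMQ, 0.08 in the deposited values, was -0.041 without normalization and -0.10 with scaling to the 75th percentile. The cause was not tested.

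With 1.5-fold as the threshold, 6 probes were higher in IMQ than in Ctrl, 6 were lower in IMQ+DMD than in IMQ, and 1 was lower in IMQ+DMD than in Ctrl. At 4-fold, 0 were lower in IMQ+DMD than in IMQ. The shares of all probes past 1.5-fold and 4-fold are not given here, so these counts stand without a background. At 2-fold, the count lower in IMQ+DMD than in IMQ was 1, in place of 2, with spike-in scaling, normexp, or no normalization. Of all probes, 0.4%, 0.09%, and 0.55% were lower under these settings, in place of 1.31%. The count lower in IMQ+DMD than in Ctrl was 1, in place of 0, with spike-in scaling or no normalization. Of all probes, 9.02% and 10.4% were lower there, in place of 4.91%. The log2 rise left in IMQ+DMD was 77.5% (75th percentile) and 76.2% (no normalization) for CCL1, 85.8% under both for CCL20, and 42.8% (normexp) and 71.0% (no filter or floor) for CCL22.

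For the other lists, alternatives were added after seeing the data. Receptor probes lower in IMQ than in Ctrl numbered 6 without normalization and with spike-in scaling, and 1 with both arrays above background. Receptor probes higher in IMQ+DMD than in IMQ numbered 1 with scaling to the 75th percentile, without normalization, with spike-in scaling, and with no filter or floor. Against Ctrl, 1 receptor probe was higher with normexp, and 1 was higher and 1 lower with both arrays above background. Other CC ligands lower in IMQ than in Ctrl numbered 5 without normalization and with spike-in scaling and 0 with normexp, 1 was higher in IMQ+DMD than in IMQ with spike-in scaling, and 3 were lower than in Ctrl without normalization and with spike-in scaling. Of the transcription and processing probes, 0 were lower in IMQ+DMD than in IMQ with normexp, and 5 were higher than in Ctrl without normalization and with spike-in scaling.

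No paired analysis was possible because each condition had 1 array. Repeat cultures, RNA extracts, and labelling reactions were not measured, and signals below about 24 on the IMQ array and 17 on the others set only bounds, which limits CCL22 and CCL8.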
